A study of Mus musculus with 18 samples.

Results

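Regions marked by H3K27me3 that lie far from any protein-coding gene and were called in some but not all libraries were examined in the mouse medial ganglionic eminence (MGE), the ventral forebrain structure that gives rise to many cortical interneurons. The overlapping autosomal intervals of 12 deposited lists were joined into 15649 regions. A region was kept when 2 to 11 of the 12 libraries had an interval in it and no protein-coding gene of GRCm38 lay within 50 kb. This left 814 regions, 11.8% of the 6925 regions called in 2 to 11 libraries and 5.20% of all 15649. The regions were thus chosen by the presence of deposited intervals, and how many libraries called a region is given below as a description without a test.

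The libraries were bulk CUT&Tag of H3K27me3 from MGE at E12.5 and E15.5, and each stage had 3 libraries of WT and 3 of KO. In CUT&Tag an antibody directs a transposase to the mark, and the DNA beside it is cut out and sequenced. The KO, labelled Nkx2.1-CreC/+;Ezh2;Ai9F/+, had Ezh2 deleted by Nkx2.1-Cre and carried Ai9, a Cre-dependent red reporter. The lists hold no transcript level, so the deletion of Ezh2 could not be checked from them. The cross in the series' design text used males homozygous for Nkx2.1-Cre and females homozygous for Ai9, each with 1 floxed Ezh2 allele. By that cross the WT embryos carry Cre and Ai9 as well. Ezh2 is deleted only in cells in which the Nkx2.1 driver has been active, so nuclei from other cells of the dissected tissue keep the gene. MGEs of embryos of 1 genotype could be combined, per the labels' protocols. The whole MGE was taken at E12.5, whereas tissue with the red reporter was selected under a fluorescence microscope at E15.5, so stage and dissection cannot be told apart. The labels number biological replicates but do not say whether embryos came from separate litters. The p-values measure the spread between these libraries, estimated with information shared over regions. Of the 18 samples, the 6 heterozygous ones were not analysed here.

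Trimethylation of lysine 27 of histone H3 is placed by Polycomb repressive complex 2, whose catalytic subunit is Ezh2 or its relative Ezh1. The mark is best known over the promoters of silent developmental regulators. Many such regulators sit beside wide gene-free intervals, called gene deserts, that hold distant enhancers and non-coding transcripts, and the mark also occurs in these intervals.

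Depth, the mean count per 200 bp window recovered from the deposited scores, ranged from 0.0751 to 0.698, and the lists held 4575 to 10730 autosomal intervals. The smallest count that made an interval ranged from 5 to 13 over the libraries. Of 23 marker genes, 19 had an interval in every library no more than 2500 bp from either end of the gene. They include the regulators of other tissues Gata4, Myod1 and Hoxa9, but also the MGE genes Nkx2-1, Lhx6 and Lhx8. Presence of an interval therefore did not separate MGE genes from those of other tissues, and gives no check of the tissue label. Among the others, Sox2 had an interval in 11 libraries and Neurod6 in 6.

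By the rule the 814 regions hold no promoter of a protein-coding gene, and the promoters in them belong to non-coding genes. RefSeq promoter windows, 250 bases before to 50 after a start site, lay wholly inside a region for 87 non-coding genes, with 105 windows in 83 regions. The windows were searched for the dinucleotide CG, which reads the same on both strands. Of the 105 windows 14.3% held at least 10 CG, against 5.08% of 3051 windows of non-coding genes in deserts that touched no region, 40% of 30 desert windows inside regions called in 1 library, 38.2% of 68 inside regions called in all 12 and 44.0% of all 31396 autosomal windows. Their median was 4 CG, against 3, 6.5, 6 and 7. Windows of regions that changed between groups (1 to 8 CG) are shown beside CG-rich ones, and a link of CG to change was not tested. They are written 5′ to 3′ on the strand of the gene in GRCm38.p6 from RefSeq, with CG in capitals, and of several windows of a gene the one with most CG is shown. The first, of 1700057H15Rik (chr4:124485910-124486209, minus strand, 6 CG), lies in a region of the Rragc to Pou3f1 desert. That of Gm32973 (chr5:106322403-106322702, minus strand, 8 CG) lies in a region near Barhl2, and that of Gm36639 (chr6:89023587-89023886, plus strand, 1 CG) in the widest region. Those of Tunar (chr12:105336743-105337042, plus strand, 30 CG) and Gm34507 (chr17:4908072-4908371, plus strand, 49 CG) are CG-rich.
1700057H15Rik: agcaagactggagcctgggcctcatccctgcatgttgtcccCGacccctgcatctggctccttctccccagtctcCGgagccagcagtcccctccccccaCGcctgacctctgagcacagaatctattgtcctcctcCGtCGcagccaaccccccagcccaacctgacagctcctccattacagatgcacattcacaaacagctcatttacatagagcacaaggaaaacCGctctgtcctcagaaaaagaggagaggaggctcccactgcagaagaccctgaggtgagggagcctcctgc
Gm32973: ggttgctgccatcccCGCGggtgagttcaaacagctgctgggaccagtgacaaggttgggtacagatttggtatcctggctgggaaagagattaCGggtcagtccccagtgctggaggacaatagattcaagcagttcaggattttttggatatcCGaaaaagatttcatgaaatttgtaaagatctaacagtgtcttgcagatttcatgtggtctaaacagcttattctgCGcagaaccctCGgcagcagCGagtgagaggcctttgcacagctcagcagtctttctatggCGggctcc
Gm36639: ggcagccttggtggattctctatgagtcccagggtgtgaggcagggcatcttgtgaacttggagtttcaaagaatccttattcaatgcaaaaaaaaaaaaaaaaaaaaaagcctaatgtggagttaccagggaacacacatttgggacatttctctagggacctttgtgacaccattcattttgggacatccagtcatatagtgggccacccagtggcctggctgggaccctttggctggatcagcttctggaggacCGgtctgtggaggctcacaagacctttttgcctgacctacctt
Tunar: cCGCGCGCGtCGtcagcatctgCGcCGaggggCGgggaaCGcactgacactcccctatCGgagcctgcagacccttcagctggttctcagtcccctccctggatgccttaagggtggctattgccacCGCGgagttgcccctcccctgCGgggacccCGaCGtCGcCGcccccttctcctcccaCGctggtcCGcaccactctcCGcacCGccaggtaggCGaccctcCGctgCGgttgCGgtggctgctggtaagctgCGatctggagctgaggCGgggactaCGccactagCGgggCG
Gm34507: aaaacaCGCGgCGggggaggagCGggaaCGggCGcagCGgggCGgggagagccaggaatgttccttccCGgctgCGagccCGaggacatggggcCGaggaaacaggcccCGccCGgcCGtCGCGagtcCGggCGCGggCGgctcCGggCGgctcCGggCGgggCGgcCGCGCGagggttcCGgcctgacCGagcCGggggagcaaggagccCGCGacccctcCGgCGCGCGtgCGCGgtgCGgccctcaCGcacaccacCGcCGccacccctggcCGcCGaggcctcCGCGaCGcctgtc

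Tunar, a long non-coding RNA gene of neural tissue, started inside a region called in 11 libraries (chr12:105335201-105340600). Its normalised counts, which are counts summed over the region after scaling each library to the average depth, were 24.4, 32.4 and 28.1 in E12.5 WT. E12.5 KO replicate 1 had no interval, and replicates 2 and 3 had 16.2 and 43.8. At E15.5 the values were 34.6, 24.1 and 24.3 in WT and 34.9, 16.9 and 24.1 in KO, so the groups overlapped. The region over the start of Gm34507 (chr17:4907401-4912600) was called in 8 libraries, with normalised counts from 7.63 in E12.5 KO replicate 2 to 41.6 in E15.5 WT replicate 3. The region over a part of Rmst (chr10:92162201-92167600), another neural long non-coding RNA gene, was called in 10 libraries with 18.1 to 36.1 normalised counts.

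The regions held 3 microRNA genes. Of these, Mir9-2 encodes miR-9, an abundant microRNA of neural progenitors, and Gm51268 is annotated on the opposite strand of the same hairpin. They lay in the region chr13:83737201-83740800 between Mef2c and Tmem161b. This region was called in 4 libraries, with normalised counts of 14.9 in E12.5 WT replicate 2, 10.5 and 10.7 in E12.5 KO replicates 2 and 3 and 32.9 in E15.5 WT replicate 3. The mature sequences, from RefSeq GRCm38.p6 with the seed (bases 2 to 8) in capitals, show that the 3 arms have different seeds. They are those of miR-9-5p (chr13:83738821-83738843, plus strand), miR-9-3p (chr13:83738858-83738879, plus strand) and miR-9b-3p (chr13:83738821-83738841, minus strand).
mmu-miR-9-5p: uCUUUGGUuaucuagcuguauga
mmu-miR-9-3p: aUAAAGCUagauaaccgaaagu
mmu-miR-9b-3p: aUACAGCUagauaaccaaaga

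Most of the 814 regions were narrow and were called in few libraries. Of them 267 were called in 2 libraries and 143 in 3, which makes 50.4% together, while 54 were called in 10 or 11. Among the other regions called in 2 to 11 libraries, 26.3% were called in 2 libraries, against 32.8% of the desert regions. Their median width was 4600 bp (200 to 37200 bp), against 4200 bp for the others. Together they covered 4.97 Mb, 0.576% of the 863 Mb of the genome that lies over 50 kb from a protein-coding gene. The median distance to the nearest such gene was 130014 bp, 296 regions lay under 100 kb away and 7 lay over 1 Mb away.

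The share of regions that lay in deserts fell with the number of libraries that called them. Deserts held 20.6% of the 6356 regions called in 1 library, 14.3% of those in 2, 5.79% of those in 11 and 4.86% of the 2368 called in all 12. The median width of desert regions went from 600 bp in 1 library to 3200 bp in 2, 11200 bp in 11 and 17400 bp in 12. A wider region offers more chances for an interval to overlap it, so width and number of libraries cannot be told apart here.

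**Figure D1:**
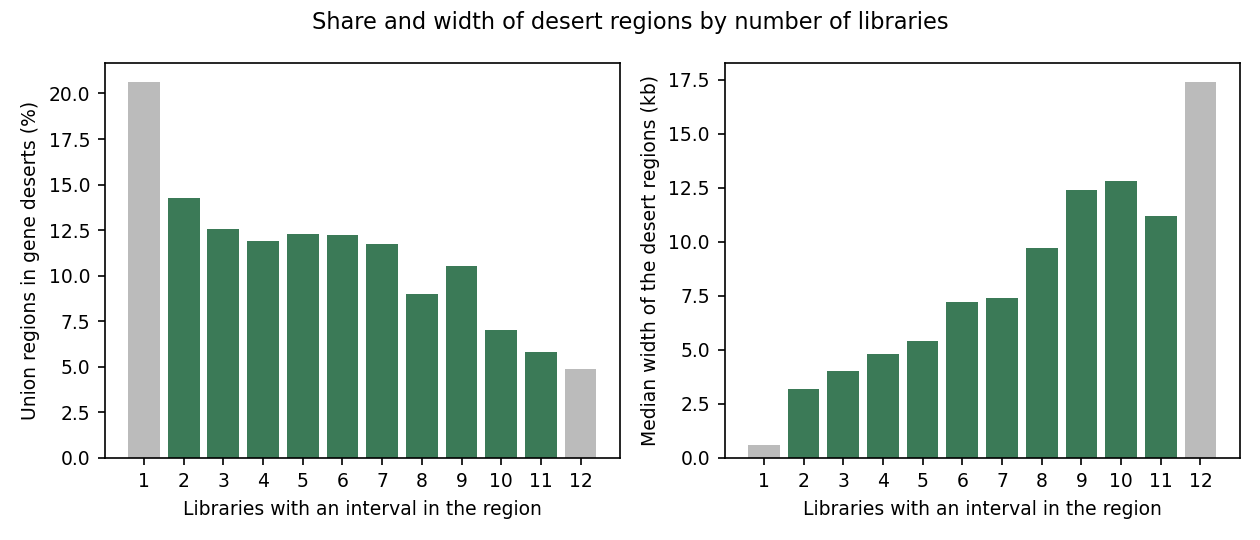
Share of union regions that lie over 50 kb from a protein-coding gene (left, percent) and median width of those regions (right, kb), by the number of libraries with an interval; green bars are the 814 regions described here and grey bars the regions of 1 or 12 libraries. The share falls from 20.6% to 4.86% and the median width rises from 600 to 17400 bp.

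Libraries differed more than groups in how many of the regions they called. The 3 E12.5 WT libraries called 150, 660 and 587 of the 814 regions at depths of 0.117, 0.698 and 0.481. The E12.5 KO libraries called 149, 306 and 391 at depths of 0.212, 0.272 and 0.243. At E15.5 the WT libraries called 108, 177 and 263 at depths of 0.0751, 0.129 and 0.150, and the KO libraries 272, 219 and 315 at 0.179, 0.216 and 0.346. The group means were 466 ± 276, 282 ± 123, 183 ± 77.7 and 269 ± 48.1 (SD, n = 3 each) in this order. Within E12.5, the WT libraries gave both the highest counts of regions and, in replicate 1, nearly the lowest. The 2 deepest libraries, E12.5 WT replicates 2 and 3, together called 695 of the 814, and 109 regions were called in these libraries alone. When each list was cut to its 4575 intervals of highest score, 349 regions met the rule, and the libraries called between 90 and 223 of them.

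**Figure D2:**
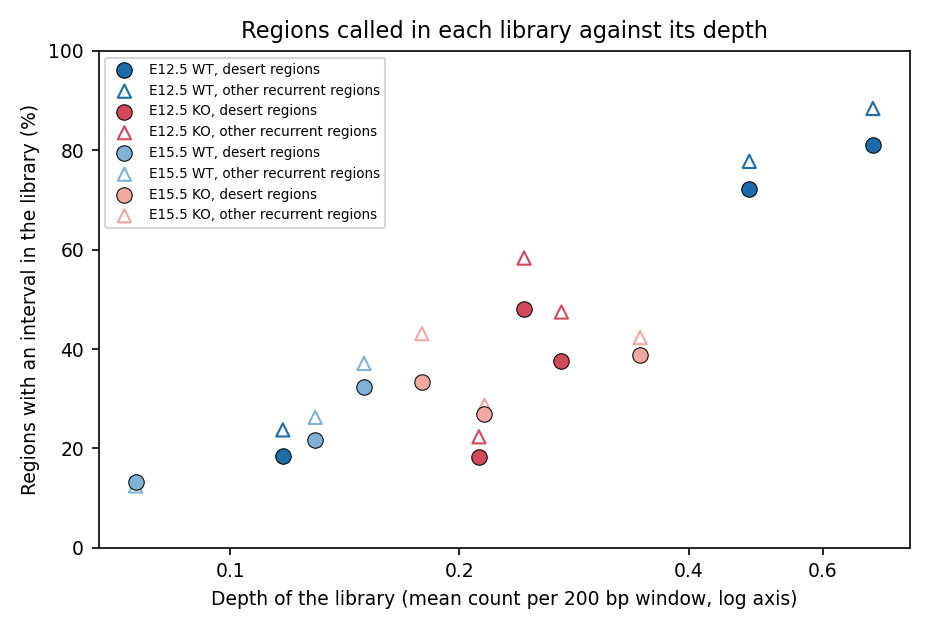
Percent of the 814 desert regions (filled circles) and of the 6111 other regions called in 2 to 11 libraries (open triangles) that had an interval in each library, against library depth on a log axis; colours mark the group. The deepest libraries, E12.5 WT replicates 2 and 3, called 81.1% and 72.1% of the desert regions, and the shallowest, E15.5 WT replicate 1, called 13.3%.

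The median signal within called desert regions was slightly below that of other recurrent regions in most libraries. The median normalised count per kb of a called region was 5.51 to 16.1 over the libraries, against 6.42 to 17.3 for the other regions called in 2 to 11 libraries and 17.1 to 32.9 for regions called in all 12. It was below that of the other recurrent regions in 11 of 12 libraries, the exception being E15.5 KO replicate 3 (8.98 against 8.77). Of the desert regions 6.63% were called in 10 or 11 libraries, against 13.2% of the others, and the sets were not matched for this. The mean depth over the genome corresponds to 1.30 normalised counts per kb. The median count in a called region was 8 to 57, so single values of narrow regions carry a large counting error. The desert regions made up 0.256 to 1.00% of the counts in autosomal intervals of a library.

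The regions with the highest median density were single windows or nearly so with few counts. A region of 200 bp between Adgrl2 and Adgrl4 (chr3:150095201-150095400) held 7 counts in each of the 2 libraries that called it, for a median of 73.7 normalised counts per kb. A region of 200 bp between Cadm2 and Speer2 (chr16:69216401-69216600) held 7 to 9 counts in 3 libraries and 70.3 per kb. The next were a region of 800 bp between Chrm3 and Ryr2 (chr13:11261201-11262000, 63.9 per kb), 1 of 600 bp between Pced1b and Rpap3 (chr15:97566601-97567200, 57.3 per kb) and 1 of 400 bp between Gm3213 and Oprm1 (chr10:6630401-6630800, 48.8 per kb). In none of these 5 did a library have more than 17 counts.

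The limit of 50 kb cut through similar regions. Just inside it lay a region of 9200 bp, 50210 bp from Cux1 (chr5:136617801-136627000, 7 libraries), 1 of 6800 bp, 50429 bp from Rbm19 (chr5:120249401-120256200, 10 libraries), and 1 of 3600 bp, 50445 bp from Rab4a (chr8:123751801-123755400, 5 libraries). Just outside lay a region of 4200 bp, 49880 bp from its nearest gene in the interval from Myo16 to Irs2 (chr8:10930601-10934800, 2 libraries). The next lay 49844 bp away between Eef2kmt and Rbfox1 (chr16:5305801-5309200, 4 libraries) and 49827 bp away between Kdm7a and Slc37a3 (chr6:39256601-39258000, 2 libraries). The region farthest from a gene lay 1392176 bp from Tenm3 (chr8:50915001-50918200). It was called in 3 E12.5 libraries with 36, 19 and 10 counts. Next came 2 regions 1341805 and 1338805 bp from Flrt2 (chr12:94347401-94350200 and chr12:94351401-94353200), each called in E12.5 WT replicates 2 and 3 alone.

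The flanking genes of the desert regions were often developmental regulators. Of 814 regions, 256 (31.4%) had a gene of a list of 243 developmental regulators as the nearest protein-coding gene on either side. Such genes flank 8.98% of the desert space and 185 of 2495 deserts (7.41%). Counted once per desert, they flanked 84 of the 356 deserts with a region (23.6%). They flanked 9.65% of the recurrent regions outside deserts. A gene that a region overlaps is not counted as flanking it, which can occur only outside deserts. Shares inside and outside deserts are therefore unlike measures. The share was 20.8% for desert regions of 1 library and 51.3% for those of 12. The regulators with most regions were Pou3f1 (15 regions), a POU-domain factor, Irx5 (12), an Iroquois homeobox gene, Lhx1 (11), a LIM-homeodomain factor, and Foxf1, Nr2f2, Sox14 and Tbx3 with 10 each. Genes of a list of 39 signalling genes flanked 19 regions (2.33%, against 1.35% of the desert space). Genes of 82 neuronal adhesion and synapse genes flanked 29 (3.56%). These genes flank 16.5% of the desert space but 4.25% of deserts, and they flanked 4.78% of the deserts with a region. They flanked 0.818% of the recurrent regions outside deserts, so the order depends on what the regions are set against. Long non-coding RNA genes covered 22.0% of the bases of the regions and 11.4% of the desert space, and 21.1% and 21.2% of the bases of desert regions called in 1 and in 12 libraries.

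The regions were spread unevenly, since 356 of 2495 deserts (14.3%) held all of them and 36 deserts with 5 or more held 284. The part of desert size in this was not tested. The desert between Mki67, a marker gene of dividing cells, and Mgmt, a DNA repair gene, held 22 regions over 991.8 kb of chromosome 7. The libraries called 3, 20 and 19 of them in E12.5 WT, 2, 3 and 7 in E12.5 KO, 1, 4 and 5 in E15.5 WT and 7, 6 and 6 in E15.5 KO. Of the 22 regions, 10 were called in E12.5 WT replicates 2 and 3 alone, which are the deepest libraries, and 3 in 9 or more libraries. A region called in 10 libraries (chr7:136535001-136549800) had normalised counts of 157, 195 and 236 in E12.5 WT and 45.3, 77.3 and 71.6 in E12.5 KO. All 3 WT values lay above all 3 KO values (edgeR log2 change -1.60, SE 0.42, adjusted p = 0.00336), and covered length was 12.53 kb in WT and 6.27 kb in KO.

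**Figure D3:**
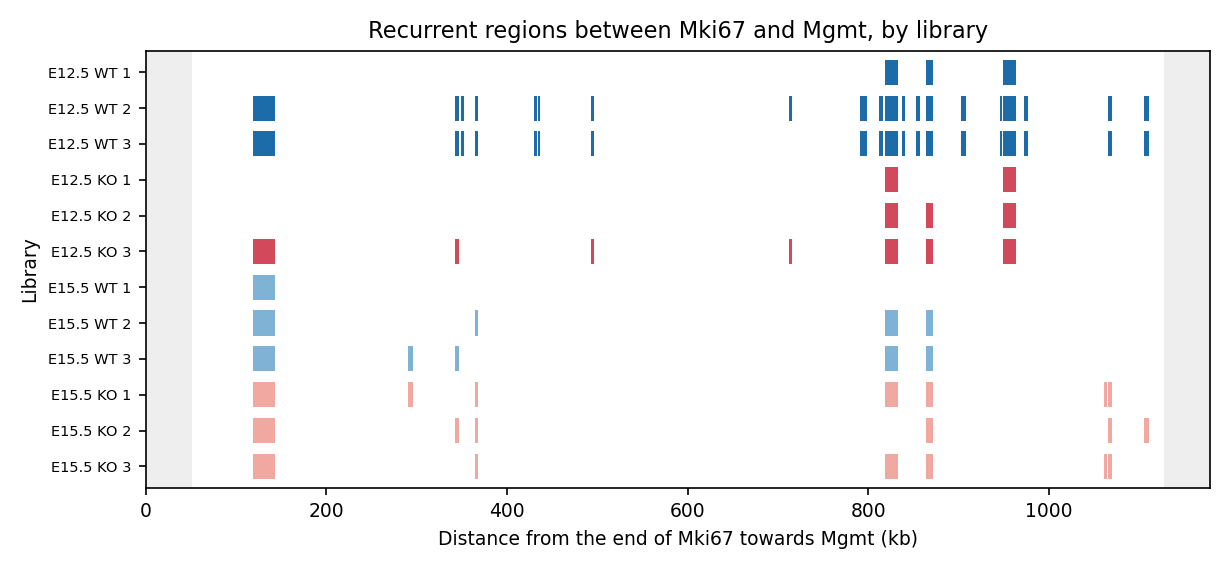
The 22 recurrent regions between Mki67 and Mgmt, placed by distance from the end of Mki67 (x axis, kb); each row is a library, a block marks a region with an interval in that library and is drawn at least 3 kb wide, and grey bands are the 50 kb next to each gene. E12.5 WT replicates 2 and 3 have 20 and 19 blocks and the other libraries 1 to 7.

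The desert from Rragc, which encodes a GTPase of the mTORC1 pathway, to Pou3f1 on chromosome 4 held 15 regions over 498.6 kb. The libraries called 2, 9 and 8 in E12.5 WT, 4, 9 and 9 in E12.5 KO, 1, 6 and 3 in E15.5 WT and 8, 8 and 10 in E15.5 KO. None of its regions was called in E12.5 WT replicates 2 and 3 alone. The desert from Csnk1g3, a casein kinase gene, to Zfp608, a zinc finger gene, on chromosome 18 held 12 regions over 793.2 kb. Here 3, 10 and 9 regions were called in E12.5 WT and 5, 10 and 9 in E12.5 KO, but 0, 2 and 1 in E15.5 WT and 4, 3 and 3 in E15.5 KO. Of these 12 regions, 8 had intervals at E12.5 alone and 0 at E15.5 alone.

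For the tests of genotype and stage, counts were summed per region and fitted with edgeR's quasi-likelihood test over all autosomal regions with an interval in all 6 libraries compared. Adjusted p-values (Benjamini-Hochberg) are over all of these, with a threshold of 0.05. A desert region enters a test only if called in all 6 libraries, and by the rule it then lacks an interval in at least 1 of the other 6. All regions tested include the 2368 called in all 12 libraries, none of which is among the 814. Shares over all regions therefore describe a different mix of regions. The regions tested were 62 at E12.5, 43 at E15.5, 25 between stages in WT and 41 between stages in KO, or 3.07 to 7.62% of the 814. The 4 comparisons share libraries in pairs. The counts stem from intervals drawn separately in each library, so a change can come from a longer stretch called as well as from more counts per kb. Mean covered lengths are therefore given with the changes. Nuclei without deletion and a weaker mark per nucleus cannot be told apart in bulk libraries.

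At E12.5, genes flanking the desert regions that fell in KO included the homeobox genes Meis1, Lhx8 and Barhl2. The forkhead gene Foxl1 and the hedgehog co-receptor gene Gas1 were also among them. For Lhx8, Foxl1 and Gas1 the gene on the other side of the region lay nearer. Of 62 regions tested, 13 were lower in KO and 3 were higher, against 10.5% lower and 0.343% higher of 3209 regions over the autosomes. The median log2 change was -0.29 for the 62 and -0.56 for all 3209. In 13 of the 62 all KO values lay below all WT values and in 3 above, against 33% and 0.654% of all regions. With TMM factors, which centre the changes over all regions near 0, 5 of the 62 were lower and 8 higher, and the medians were 0.23 and -0.04. Developmental regulators flanked 7 of the 13 lower regions and 21 of the 62 tested.

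The region with the largest fall lay between Meis1, a TALE homeobox gene, and Spred2, an inhibitor of Ras signalling (chr11:19089201-19109000, 69549 bp from Meis1). Its normalised counts were 157, 197 and 230 in E12.5 WT and 25.7, 26.7 and 42.7 in KO. Every WT value lay well above every KO value, and the change was -2.62 on the log2 scale (SE 0.44, adjusted p = 4.3e-07). With TMM factors the change was -2.12 (adjusted p = 0.000233). The mean covered length was 16.5 kb in WT and 3.2 kb in KO, and the count per covered kb in KO was 0.842 of that in WT. At E15.5 only WT replicate 3 had an interval there, with 22.5.

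A region (chr3:154469401-154476600) lay 138840 bp from Lhx8, a LIM-homeodomain gene that is itself active in the MGE, and 99919 bp from Tyw3. It had 51.0, 92.6 and 77.3 in E12.5 WT and 23.3, 14.3 and 12.8 in KO. The groups did not overlap (log2 change -2.17, SE 0.44, adjusted p = 4.72e-05), covered length was 5.13 kb in WT and 2.53 kb in KO, and the count per covered kb in KO was 0.462 of that in WT. At E15.5 the values were 42.2 and 53.7 in the 2 WT libraries with an interval and 37.8, 34.9 and 25.6 in KO. Near Barhl2, a homeobox gene of the diencephalon, a region of 10200 bp (chr5:106313601-106323800) that contains the start of Gm32973 printed above was called in all 6 E12.5 libraries and in none at E15.5. It had 75.3, 77.8 and 88.7 in WT and 26.9, 16.2 and 35.3 in KO (log2 change -1.63, SE 0.43, adjusted p = 0.00438), and covered length was 7.27 kb in WT and 3.87 kb in KO. Its call was lost without E12.5 WT replicate 3 (adjusted p = 0.0921) and without KO replicate 2 (adjusted p = 0.0999).

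The Foxl1 region (chr8:121357001-121370800) lay 226356 bp from Foxl1 and 159975 bp from 1700018B08Rik. It had 19.9, 50.2 and 50.8 in E12.5 WT and 18.4, 8.59 and 8.55 in KO. The groups barely separated, with WT replicate 1 close to KO replicate 1 (log2 change -1.87, SE 0.41, adjusted p = 0.000247, and with TMM factors -1.30, adjusted p = 0.115). Its covered length was 8.33 kb in WT and 1.87 kb in KO, while the count per covered kb was 1.31 times higher in KO. The Gas1 region (chr13:59966001-59977000, 197404 bp from Gas1 and 142831 bp from Tut7) had 33.2, 94.9 and 88.1 in WT and 23.3, 20.0 and 23.5 in KO. It changed by -1.74 (SE 0.43, adjusted p = 0.00167), and not past the threshold with TMM factors (adjusted p = 0.0558) or without WT replicate 3 (adjusted p = 0.065). Its covered length was 7.2 kb in WT and 2.4 kb in KO.

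The 3 regions that rose in E12.5 KO lay between Tox, an HMG-box gene, and Car8 (chr4:7987201-8004000), between Rragc and Pou3f1 (chr4:124470401-124487400), and between Bambi, a decoy receptor of TGF-beta signalling, and Lyzl1 (chr18:3835401-3842200). The Tox to Car8 region had 22.2, 49.5 and 46.5 in WT and 50.2, 200 and 123 in KO, where KO replicate 1 lay next to the WT values (log2 change 1.60, SE 0.43, adjusted p = 0.00525). The Pou3f1 region, which holds the start of 1700057H15Rik, had 88.6, 103 and 83.8 in WT and 147, 215 and 301 in KO, without overlap (1.27, SE 0.40, adjusted p = 0.0227). The Bambi region had 26.6, 32.7 and 38.9 in WT and 49.0, 76.3 and 111 in KO (1.24, SE 0.43, adjusted p = 0.0397). Covered length was 6.13, 13 and 4 kb in WT and 10.3, 16.4 and 5.07 kb in KO, and counts per covered kb were 1.89, 1.91 and 1.90 times higher in KO. Their calls were lost without E12.5 WT replicate 3 (adjusted p = 0.0906, 0.249 and 0.23) and without KO replicate 2 (adjusted p = 0.198, 0.12 and 0.076), and the last 2 also without WT replicate 2 (adjusted p = 0.0863 and 0.234). The Bambi call was also lost without WT replicate 1 (adjusted p = 0.0641).

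**Figure D4:**
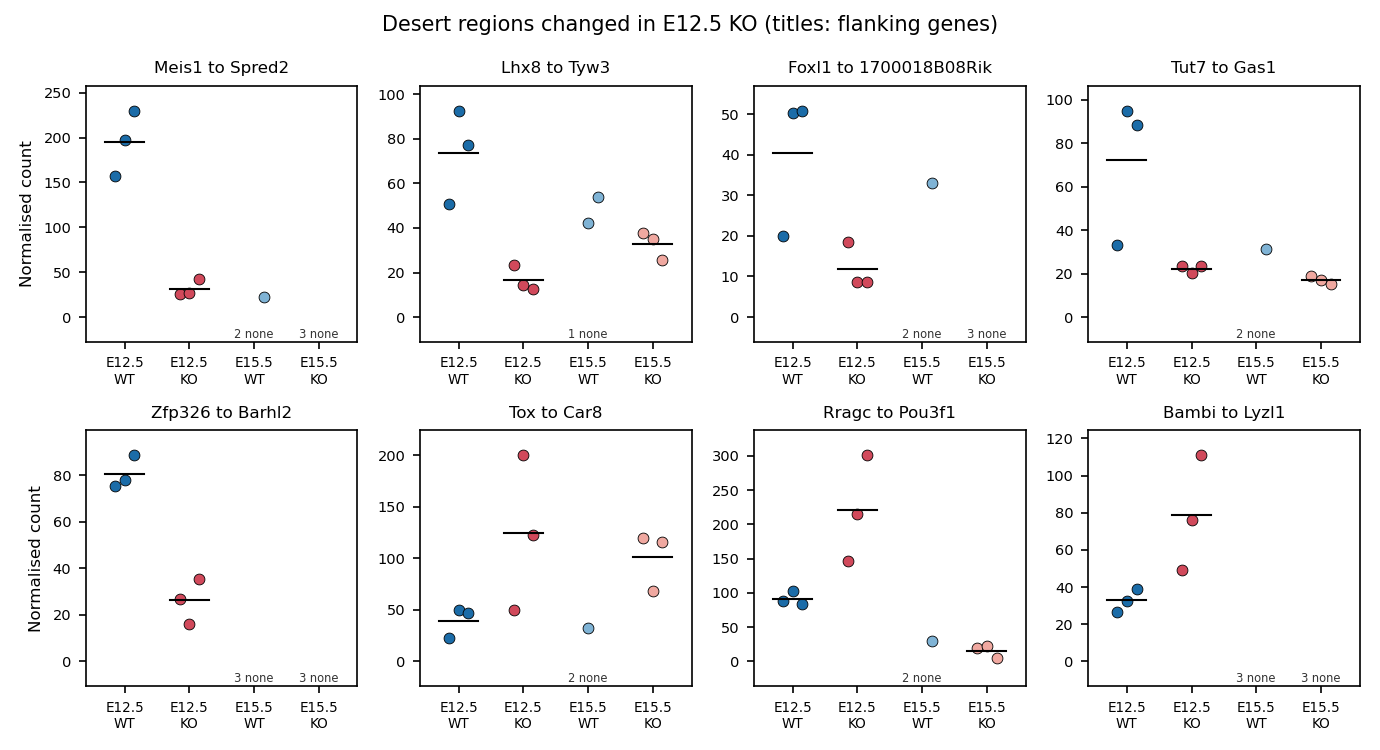
Normalised counts (y axis) of the 5 desert regions with the largest fall and the 3 with a rise in E12.5 KO, in each library of the 4 groups (x axis); points are libraries, bars are means of 3, "none" gives the number of libraries without an interval, and titles name the flanking genes. In the first 5 panels all E12.5 KO points lie below the WT points and in the last 3 above them.

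In all 16 regions called at E12.5 the mean covered length moved in the direction of the count. Only 2 of them had covered lengths within 1.5-fold, and among the 40 regions tested under that limit 0 passed at an adjusted p of 0.05. Without E12.5 WT replicate 3 there were 4 lower and 0 higher, without WT replicate 2 there were 8 and 1, and without KO replicate 2 there were 10 and 1.

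Of the 5 widest regions, the second, between Tbx18, a T-box gene, and Nt5e (chr9:88037801-88074000, 36200 bp), also fell at E12.5. Its normalised counts were 204, 438 and 478 in WT and 68.6, 156 and 152 in KO (log2 change -1.58, SE 0.37, adjusted p = 0.000686), with covered lengths of 26.1 and 10.7 kb. No E15.5 WT library had an interval there, and KO replicates 1 and 3 had 68.4 and 54.9. The fifth widest, between Mki67 and Mgmt (chr7:135835401-135859200, 23800 bp), overlaps 6330420H09Rik. It was called in 9 libraries, with 108 and 66.0 in E12.5 WT replicates 2 and 3, 20.3 in KO replicate 3 and 19.3 to 52.4 over the 6 E15.5 libraries.

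A fit with limma that drops a library without an interval, and needs 2 of 3 libraries per group, reached 233 of the 814 regions at E12.5. Of these, 29 were lower and 5 higher in KO, against 8.14% and 0.431% of 4875 regions. The lowest was a region of 28000 bp between Psmd7 and Zfhx3, a homeobox gene (chr8:108079401-108107400), with 99.7, 292 and 276 in WT and 8.59 and 11.8 in KO replicates 2 and 3, KO replicate 1 having no interval (log2 change -4.25, adjusted p = 8.87e-15). Covered length was 21.6 kb in WT and 1.1 kb in these KO libraries. Developmental regulators flanked 15 of the 29 lower regions and 87 of the 233 tested. Dropping a library without an interval leaves out its low or absent signal. The same fit gave 1 lower and 4 higher of 112 regions between genotypes at E15.5, against 0.701% and 2.19% of all. Between stages it gave 15 lower and 19 higher of 116 in WT, against 31.2% and 5.68%, and 20 lower and 11 higher of 116 in KO, against 6.12% and 6.7%.

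At E15.5 few desert regions passed the threshold between genotypes. Of 43 tested, 2 were lower in KO, near the forkhead genes Foxp1 and Foxb1, and 4 were higher, against 1.42% lower and 3.17% higher of 2678 regions. The median log2 change was -0.10 for the 43 and -0.02 for all. In 4 of the 43 all KO values lay below all WT values and in 8 above, against 8.1% and 13.1% of all regions.

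The region between Foxb1 and Bnip2 (chr9:69816401-69848000, 31600 bp, the third widest, overlapping B230323A14Rik) had 263, 311 and 352 in E15.5 WT and 156, 182 and 84.2 in KO. The groups did not overlap (log2 change -1.17, SE 0.24, adjusted p = 0.0126), covered length was 23.7 and 19.5 kb, and counts per covered kb in KO were 0.553 of those in WT. At E12.5 the same region had 73.1, 346 and 218 in WT and no interval in any KO library. The region between Gm765 and Foxp1 (chr6:98759001-98781800) had 86.5, 281 and 276 in E15.5 WT and 93.1, 110 and 73.7 in KO, so that WT replicate 1 lay among the KO values. Covered length was 14.3 kb in WT and 12.9 kb in KO. Its change of -1.27 (SE 0.33, adjusted p = 0.0406) was not past the threshold without any 1 of WT replicates 2 and 3 (adjusted p = 0.184 and 0.132) or KO replicates 1, 2 and 3 (adjusted p = 0.121, 0.0844 and 0.168).

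The region between D16Ertd472e and Chodl, a lectin-like membrane protein gene (chr16:78835401-78847000), had 38.0, 52.2 and 26.0 in E15.5 WT and 114, 95.1 and 112 in KO. All KO values lay above all WT values (log2 change 1.47, SE 0.30, adjusted p = 0.0114), with a covered length of 4.07 kb in WT and 9.73 kb in KO and 1.15 times the count per covered kb. The region between Sp4 and Sp8, a zinc finger gene of the embryonic telencephalon (chr12:118711001-118726400), had 45.0, 50.2 and 58.9 in WT and 128, 120 and 114 in KO (1.21, SE 0.25, adjusted p = 0.0114). Its values within each genotype were close together, covered length was 5.33 and 12.7 kb, and the call was lost without WT replicate 2 (adjusted p = 0.0627) or KO replicate 2 (adjusted p = 0.0519).

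The other 2 higher regions lay on chromosome 7. That between Bub3, a mitotic checkpoint gene, and Gpr26 (chr7:131835401-131858000) had 65.7, 30.1 and 22.5 in WT and 137, 129 and 72.9 in KO (log2 change 1.61, SE 0.38, adjusted p = 0.0302). That between Gm35364 and Tex36 (chr7:133183201-133199600) had 27.7, 70.3 and 57.2 in WT and 180, 145 and 89.5 in KO (1.34, SE 0.34, adjusted p = 0.0375). Covered length went from 4.07 to 14.6 kb in the first and from 6.27 to 12.8 kb in the second, and counts per covered kb in KO were 0.797 and 1.31 of those in WT. Without E15.5 WT replicate 3 their adjusted p-values were 0.0994 and 0.0758, without KO replicate 1 they were 0.105 and 0.151, and without KO replicate 2 they were 0.114 and 0.116. The first call was also lost without WT replicate 2 (adjusted p = 0.113), and the second without WT replicate 1 (adjusted p = 0.0671). The E15.5 KO libraries were all deeper than the E15.5 WT libraries, and the part of depth in how long a stretch was called was not tested. No desert region was called higher among the 28 with covered lengths within 1.5-fold, while 2 stayed lower. The number of higher regions was 2 without WT replicate 3 or KO replicate 1 and 1 without KO replicate 2, and that of lower regions 1 without WT replicate 2, WT replicate 3 or KO replicate 3.

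Whole intervals were present in 1 genotype and absent in the other for few desert regions. At E12.5, 23 of the 814 had an interval in each of the 3 WT libraries and none in KO, of 104 among all 15649 regions. They were 2.83% of the desert regions, against 0.665% of all and 1.50% of the 6925 called in 2 to 11 libraries. The reverse, intervals in KO only, held for 0 of the 814, and for 1 among all. It held for 2, 9, 1 and 2 of the 814 when WT replicate 2 or KO replicates 1, 2 or 3 were left out. At E15.5, 3 of the 814 had intervals in the 3 WT libraries only, of 6 among all, and 23 in the 3 KO libraries only, of 155. These were 0.369% and 2.83% of the 814, against 0.0866% and 2.24% of the 6925. The rule on the number of libraries uses the same calls, so nothing is read from these shares.

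Of the 23 at E12.5, 16 had an interval in at least 1 E15.5 WT library and 16 in at least 1 E15.5 KO library, and 5 in no E15.5 library. The widest was the Foxb1 region above. Next were a region of 17400 bp between Zfp507 and Gm36722 (chr7:36067001-36084400), with 28.8, 75.9 and 41.6 in E12.5 WT, and 1 of 16800 bp between Olfr1505 and Tle4, a transcriptional corepressor gene (chr19:14233601-14250400), with 73.1, 204 and 190. At E15.5 the Tle4 region had 138, 239 and 229 in WT and 170, 134 and 116 in KO, so an interval was absent only from the 3 E12.5 KO libraries. WT replicate 1, which has all 23, was shallower than every E12.5 KO library (0.117 against 0.212 to 0.272). Without that replicate 211 desert regions were called in both other WT libraries and no KO library, and without KO replicate 3 there were 35.

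Of the 23 called at E15.5 in KO only, 15 had an interval in at least 1 E12.5 KO library and 17 in at least 1 E12.5 WT library. The widest were a region of 20400 bp between Foxd1, a forkhead gene, and Tmem174 (chr13:98537401-98557800), with 21.8, 18.1 and 6.02 normalised counts, 1 near Zfp608 described below, and 1 of 15200 bp between the receptor tyrosine kinase genes Pdgfra and Kit (chr5:75341201-75356400), with 94.6, 86.7 and 72.9. The KO libraries held a median of 17, 22 and 22 counts in these 23 regions. The E15.5 WT libraries were shallower than the KO libraries (0.0751 to 0.150 against 0.179 to 0.346), and genotype and depth cannot be told apart for these calls. Without WT replicates 2 or 3, or KO replicates 1 or 2, the number was 36, 41, 38 and 54. The 3 regions called in E15.5 WT only were of 14400 bp between Tle4 and Psat1 (chr19:15222601-15237000), of 8400 bp between Kcng1 and Nfatc2 (chr2:168339001-168347400) and of 3800 bp between Prok2 and Rybp (chr6:99961601-99965400). They held 7 to 56 counts, in libraries shallower than those without an interval. Without WT replicate 1 there were 15 such regions, and without KO replicates 1 or 3 there were 5 and 6.

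Between stages, calls at E12.5 alone were more frequent than calls at E15.5 alone. Of the 814, 307 had intervals at E12.5 alone, 77 at E15.5 alone and 430 at both stages. The shares at 1 stage alone were 37.7% and 9.46%, against 30.6% and 4.22% of the 6111 other recurrent regions, where E12.5 alone was also the more frequent. The 2 deepest libraries are both of E12.5, and the part of depth in these counts was not tested. In all 6 E12.5 libraries and no E15.5 library there were 16 of 50 such regions among all 15649, and in all 6 E15.5 and no E12.5 library 0 of 12. Of the 16, developmental regulators flanked 6, among them the Barhl2 region above and a region of 20000 bp between Tfap2b and Pkhd1 (chr1:19894401-19914400) with 120 to 237 normalised counts over the E12.5 libraries.

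In WT, 25 regions were tested between stages, 2 lower and 2 higher at E15.5, against 44.1% lower and 3.69% higher of 2549 regions. The median log2 change was -0.11 for the 25 and -0.59 for all. With TMM factors 2 were lower and 9 higher, with medians of 0.40 and -0.09. The lower regions lay between Dusp10 and Hlx, a homeobox gene (chr1:184442201-184463000), and between Cd83 and Jarid2, whose product is an accessory subunit of Polycomb repressive complex 2 (chr13:44488001-44508600). The Hlx region had 99.7, 182 and 161 in E12.5 WT and 48.4, 20.1 and 19.1 in E15.5 WT (-2.46, SE 0.42, adjusted p = 0.000876). The Jarid2 region had 62.0, 182 and 138 at E12.5 and 20.8, 18.1 and 34.7 at E15.5 (-2.37, SE 0.45, adjusted p = 0.00154). Covered lengths fell from 15.9 to 3.4 kb and from 13.6 to 1.73 kb, and counts per covered kb were 0.928 and 1.51 of those at E12.5.

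The higher regions in WT lay between Tpra1 and Plxna1, a semaphorin co-receptor gene (chr6:89005801-89043000, 37200 bp, the widest of all 814), and between Tle4 and Psat1 (chr19:14861001-14873800). The first, which holds the start of Gm36639, had 77.6, 327 and 137 in E12.5 WT and 803, 675 and 673 in E15.5 WT (1.93, SE 0.37, adjusted p = 0.0016), with 17.4 and 29.2 kb covered and 2.36 times the count per covered kb. The second had 35.5, 53.6 and 45.4 and then 55.3, 133 and 118 (1.18, SE 0.35, adjusted p = 0.0163), with 4.13 and 7.6 kb covered. Its call was lost without E12.5 WT replicate 3 (adjusted p = 0.0736) or E15.5 WT replicate 2 (adjusted p = 0.081). With a library left out, lower regions numbered 9 when E12.5 WT replicate 1 was dropped, and 10 and 5 when E15.5 WT replicates 1 and 3 were. Higher ones numbered 13 and 5 without E12.5 WT replicates 1 and 2, and 1 without E15.5 WT replicate 2.

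In KO, 41 regions were tested between stages, 8 lower and 2 higher at E15.5, against 7.41% and 6.28% of 3010 regions. The median log2 change was -0.48 for the 41 and -0.07 for all. The largest fall was in the region between Rragc and Pou3f1 that had risen in KO at E12.5. It had 147, 215 and 301 in E12.5 KO and 18.9, 21.7 and 5.26 in E15.5 KO (-3.93, SE 0.42, adjusted p = 4.04e-18), and covered length fell from 16.4 to 3.27 kb. In WT the same region had 88.6, 103 and 83.8 at E12.5 and an interval in replicate 3 alone at E15.5, with 29.5. Near Zfp608 a region of 18000 bp (chr18:54777201-54795200) had 180, 449 and 392 in E12.5 KO and 43.7, 19.3 and 28.6 in E15.5 KO (-3.50, SE 0.37, adjusted p = 7.94e-19), and covered length fell from 14.3 to 4.4 kb. It had 191, 262 and 285 in E12.5 WT and no interval in any E15.5 WT library. With TMM factors the adjusted p-values of these 2 falls were 4.59e-07 near Pou3f1 and 7.03e-07 near Zfp608.

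Regions flanked by the orphan nuclear receptor gene Nr2f2, the Notch effector gene Hes1 and the homeobox gene Nkx6-1 were also lower. The distances to these genes were 390745, 327956 and 328183 bp, and the Hes1 region lay nearer to Opa1 (54073 bp). The Nr2f2 region (chr7:69945401-69961200) had 186, 300 and 235 in E12.5 KO and 27.6, 33.7 and 60.2 in E15.5 KO (-2.53, SE 0.36, adjusted p = 3.17e-10). It had 173, 229 and 258 in E12.5 WT and 36.2 and 19.1 in the 2 E15.5 WT libraries with an interval. The Hes1 region (chr16:29717201-29737400) had 115, 105 and 282 and then 46.6, 22.9 and 27.1 (-2.40, SE 0.39, adjusted p = 3.67e-08). The Nkx6-1 region (chr5:101319201-101331000) had 58.8, 118 and 131 and then 23.3, 19.3 and 20.3 (-2.30, SE 0.41, adjusted p = 8.33e-07), and covered length fell from 7.73 to 1.53 kb with 1.03 times the count per covered kb. For Nr2f2 and Hes1 the counts per covered kb at E15.5 were 0.435 and 0.465 of those at E12.5, with covered lengths from 13.1 to 5.07 kb and from 14.2 to 5.87 kb.

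The 2 higher regions lay between Gm30733 and Prex1, a Rac exchange factor gene (chr2:166414601-166430800), and between the homeobox gene Nkx2-2 and the paired box gene Pax1 (chr2:147296401-147310600). The Prex1 region had 17.1, 11.5 and 33.1 in E12.5 KO and 160, 143 and 95.5 in E15.5 KO (2.68, SE 0.41, adjusted p = 3.63e-09). In E15.5 WT it had 20.8, 78.4 and 74.5. The Nkx2-2 region had 29.4, 51.5 and 17.1 and then 183, 181 and 138 (2.34, SE 0.39, adjusted p = 6.99e-08), and in E15.5 WT it had 211, 157 and 166. Covered lengths rose from 2.8 to 13.7 kb and from 2.93 to 11.1 kb, and counts per covered kb by 1.32 and 1.35 times. The number of lower regions was 13 without E12.5 KO replicate 1 or E15.5 KO replicate 1, and that of higher regions 8 and 4 without E12.5 KO replicates 1 and 2.

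The effect of genotype differed between the stages in 6 desert regions. This was tested as a stage by genotype term in limma over 3253 regions called in at least 2 of 3 libraries of each of the 4 groups, a test added after the data had been seen. Of 52 desert regions tested, 6 passed an adjusted p of 0.05 (11.5%), against 3.63% of all. By the rule none of the 52 has an interval in every library, whereas all regions include the 2368 called in all 12. The shares therefore describe different mixes of regions, and nothing is read from their difference. In each of the 6 the KO was lower than WT at E12.5 and the E15.5 effect was less negative or positive. The median of this difference over all 3253 regions was 0.58 on the log2 scale, so part of each value is shared by all regions.

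The widest of all regions, between Tpra1 and Plxna1, had 77.6, 327 and 137 in E12.5 WT and 25.7 and 7.48 in the 2 KO libraries with an interval. At E15.5 it had 803, 675 and 673 in WT and 914, 1120 and 791 in KO, so that KO values lay far below WT at E12.5 and overlapped them at E15.5. The log2 effect was -3.39 at E12.5 and 0.38 at E15.5, a difference of 3.77 (SE 0.55, adjusted p = 4.05e-05). The region between Psmd7 and Zfhx3 had 20.8, 119 and 189 in E15.5 WT and 137, 98.7 and 54.1 in KO, and a difference of 4.43 (SE 0.76, adjusted p = 0.000351). The region between Rpl34 and Lef1, a transcription factor gene of Wnt signalling (chr3:130901801-130918600), had 37.7, 151 and 97.3 in E12.5 WT and 7.63 and 10.7 in the KO libraries with an interval. At E15.5 it had 27.7, 102 and 121 in WT and 118, 86.7 and 69.2 in KO, for a difference of 3.44 (SE 0.70, adjusted p = 0.00192).

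The region between Epha4 and Pax3, a paired box gene (chr1:77969001-77988200), had 51.0, 150 and 81.6 in E12.5 WT and 21.0 and 15.0 in KO, then 138, 147 and 196 in E15.5 WT and 162, 185 and 124 in KO. Its difference was 2.20 (SE 0.54, adjusted p = 0.0124). It was not past the threshold without E12.5 WT replicate 2 (adjusted p = 0.0638) or E15.5 KO replicate 2 (adjusted p = 0.0538). Between Zfp521 and Ss18 (chr18:14238601-14256200) 9 libraries had an interval, with 172 and 126 in E12.5 WT, 34.4 and 8.55 in E12.5 KO, 36.2 and 22.5 in E15.5 WT and 125, 69.8 and 73.7 in E15.5 KO. The difference was 4.61 (SE 0.71, adjusted p = 9.32e-05). Between the Iroquois genes Irx3 and Irx5 (chr8:91963601-91978600) the values were 67.3 and 32.4, 16.2 and 8.55, 20.1 and 26.0, and 81.5, 60.2 and 36.9 in the same order of groups, with a difference of 3.19 (SE 0.70, adjusted p = 0.00444). Over the 6 regions the mean covered length of the libraries with an interval was 9.47 to 21.6 kb in E12.5 WT, 1.1 to 2.8 kb in E12.5 KO, 3.2 to 29.2 kb in E15.5 WT and 7.93 to 32.8 kb in E15.5 KO. Counts per covered kb in KO were 0.571 to 1.31 of those in WT at E12.5 and 0.715 to 1.17 at E15.5. E12.5 KO replicate 1 had no interval in 5 of these 6 regions. It entered none of those 5 fits, and the Tpra1 to Plxna1 fit lacked KO replicate 2. The number of regions called was 15 without E12.5 WT replicate 1, and 3 without any 1 of E12.5 WT replicate 2, KO replicate 2 and KO replicate 3.

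**Figure D5:**
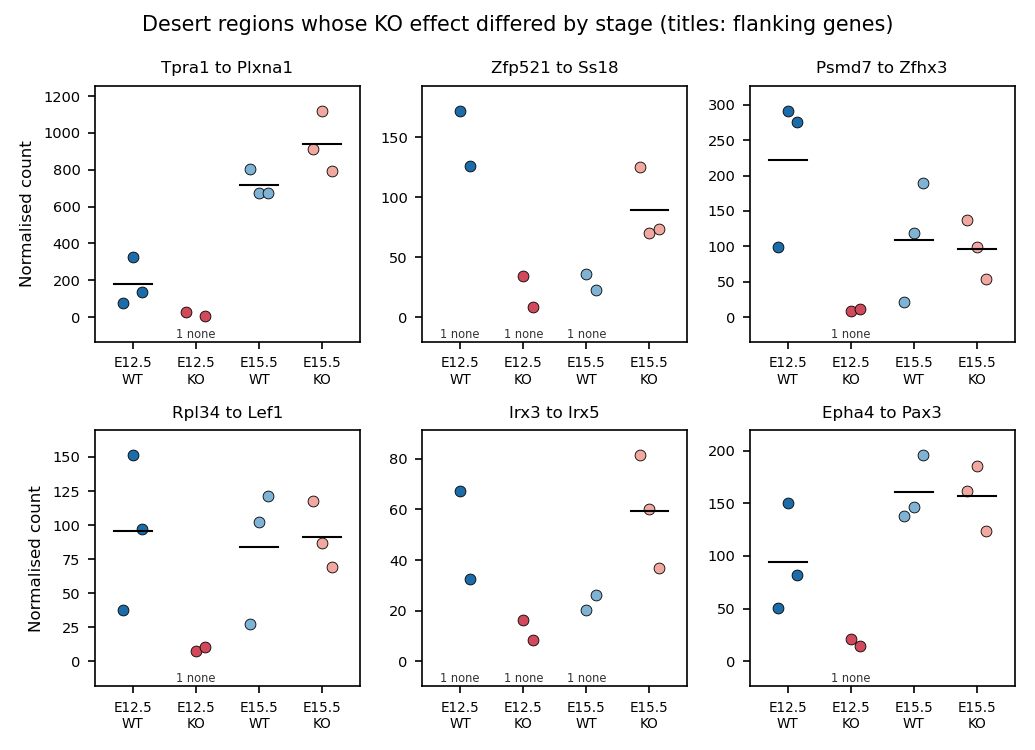
Normalised counts (y axis) of the 6 desert regions whose KO effect differed between stages, by group (x axis); points are libraries, bars are means of 3, and "none" gives the number of libraries without an interval. E12.5 KO points lie below all E12.5 WT points in each panel, while E15.5 KO points overlap or exceed the WT points.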

How the data were processed

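H3K27me3 was measured by bulk CUT&Tag in 12 libraries (3 WT and 3 KO at E12.5 and at E15.5, grouped by the genotype and stage labels). The submitters' processing notes name cutadapt, Bowtie2, SAMtools, Picard, deepTools and SICER without roles, and the builds GRCm38 and mm10. The authors deposited 1 list of intervals per library, so lists were not pooled over replicates. Each interval has a raw count, as the authors deposited it, and a score, also deposited by the authors. Intervals lie on a grid of 200 bp and at least 800 bp apart. How the score was made is not given in the sources used here. For single-window intervals, a Poisson model with 1 mean for each library gave the score as minus ln of the probability of the observed count, with a misfit of at most 0.00407 (E12.5 KO replicate 2). That mean is the depth. That it is proportional to the reads is an assumption.

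Coordinates are GRCm38, counted from 1. Distances use the 20665 autosomal protein-coding genes of the RefSeq table of GRCm38.p6. Counts were summed per region and tested in R 4.3.3 by edgeR 4.0.16, taking library size from depth. SEs were obtained by dividing each log2 change by the root of its F value. edgeR shares the estimate of spread over regions, and at E12.5 the SE followed a region's own spread little. It was 0.437 between Lrig1 and Kbtbd8 (WT mean 96.5, SD 27.2, KO 34.4, SD 6.76). It was 0.435 in chr5:101425401-101442200 near Nkx6-1 (WT mean 104, SD 68.0, KO 40.4, SD 20.8). Very small p-values therefore do not measure how close the 3 values of a region lie. limma 3.58.1 used log2 of the count plus 0.5. Both were tested on simulated counts for the 4 comparisons, over all regions with an interval in all 6 libraries. The simulation gave every region the same variation between libraries and had no missing or separately drawn intervals. Of regions with a 2-fold change, edgeR recovered 14 to 31% and limma 12 to 28%. At 4-fold these were 97.5 to 100% and 96 to 99%, so most 2-fold changes were missed in the simulation. Recovery in the desert regions alone was not simulated. Alternatives were TMM factors, DESeq2 1.42.0, a mean count of at least 50, covered lengths within 1.5-fold, limma with libraries dropped, the replicate block, each library left out, and other limits of the rule (distances of 25 and 100 kb, every gene, 3 libraries, joining up to 1000 bp, coverage of the region, lists of equal length). Regions named are the up to 5 largest changes per direction and comparison, the 5 widest, the 5 densest, the up to 3 widest called in 1 genotype only, the 3 fullest deserts (their members summarised), the 3 nearest the limit on each side and the 3 farthest from a gene. Others (Tunar, Gm34507, Rmst, Mir9-2, Tfap2b, the called Mki67 to Mgmt region, the lowest in limma and the 6 whose effect differed by stage) were chosen after their values were seen. The regions and lists were chosen with earlier results of these data known. Other software was Python 3.11.15, numpy 2.4.6 and pandas 2.3.3.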

Additional observations from a re-analysis of the deposited data

Results flagged for a closer look

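The genotype effect differed between the stages in 6 desert regions by the limma term for stage and genotype. The difference, as the E15.5 minus the E12.5 log2 effect, was 2.20 between Epha4 and Pax3, 3.44 between Rpl34 and Lef1, 3.77 between Tpra1 and Plxna1, 3.19 between Irx3 and Irx5, 4.43 between Psmd7 and Zfhx3 and 4.61 between Zfp521 and Ss18. Fits without a library that kept at least 2 libraries per group could be made 6 to 10 times per region. All of them passed the threshold for 5 of the regions, and 8 of 10 for Epha4 to Pax3. The lowest differences in those fits were 1.80, 2.80, 3.22, 2.93, 3.52 and 4.34 in the order above. Groups of 3 libraries are too small to single out a library as standing apart.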

How the results depend on the processing

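For lower and higher regions at E12.5 (13 and 3), TMM factors gave 5 and 8, DESeq2 7 and 13, covered lengths within 1.5-fold 0 and 0, and limma with libraries dropped 29 and 5. At E15.5 (2 and 4), limma gave 1 lower and the length limit 0 higher. Between stages in WT (2 and 2), the length limit gave 0 and 0, limma 15 and 19, TMM factors 9 higher and DESeq2 8 higher. In KO (8 and 2), the length limit gave 0 and 0 and limma 20 and 11. The length limit and the dropped libraries also change how many regions are tested, to 14 to 40 and 112 to 233. The replicate block gave 13 and 3 at E12.5, 2 and 5 at E15.5, 4 and 5 in WT and 7 and 2 in KO. Deviations of same-numbered libraries correlated at -0.24 to 0.25 and exceeded 0.1 in every pair of no comparison, so the numbers were not taken as a pairing.

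Leaving out each library gave 4 to 19 lower and 0 to 4 higher at E12.5, 1 to 3 and 1 to 6 at E15.5, 2 to 10 and 1 to 13 in WT, 7 to 13 and 2 to 8 in KO, and 3 to 15 for the difference between stages. Regions in all WT and no KO libraries numbered 23 to 211 at E12.5 and 4 to 15 at E15.5, and the reverse 0 to 9 and 25 to 54. The 814 regions became 518 at 100 kb, 149 when every gene of the table counted and 349 in lists of equal length. At 100 kb, 14 were called in all E15.5 KO and no WT libraries. Equal lists gave group means of 180, 134, 116 and 157 called regions in E12.5 WT, E12.5 KO, E15.5 WT and E15.5 KO. For single regions, 290 refits kept direction and call, 39 kept the direction only, and 0 reversed. A setting under which a region was no longer tested is left out of this tally. Only 2 of the 16 regions called at E12.5 met the length limit. At E15.5 it was 2 of 6, between stages in WT 0 of 4 and in KO 1 of 10. The tally therefore says little about the length limit. The causes were not tested beyond the change in regions tested. The shallowest library had a depth of 0.0751, and a median count of 8 in the regions that it called limits what could be detected there.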
